A study of Mus musculus with 3 samples.

Results

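The interferon regulatory factor (IRF) family was followed through 3 mouse 2-colour Agilent arrays as the 8 genes Irf1, Irf2, Irf3, Irf4, Irf5, Irf7, Irf8 and Irf9. They were found by gene name among the non-control probes, which gave 12 of 41174 probes. All 12 were kept after dim probes were left out, of 32906 kept, and the 8 genes stood among 22220 genes tested. Irf1, Irf3, Irf8 and Irf9 had 2 probes each and the other 4 genes had 1. Other genes of the family were not analysed here.

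Each array compared Mef2c-deficient cells (Mx1-Cre Mef2c f/f) with control cells (Mef2c f/f without Cre) in a series on how the transcription factor Mef2c bears on lymphoid and myeloid fate. The cells were 15000 sorted multipotent progenitors per sample, lineage-negative bone marrow cells with c-kit and Sca-1. Both groups received poly(I:C) on 4 consecutive days and were taken 2 days after the last dose. The labels give no age and no group without poly(I:C), so the response to poly(I:C) itself was not measured. Cre is driven by the interferon-responsive Mx1 promoter, which also acts outside these progenitors, and it was carried by the mutants only, so an effect of Cre cannot be told apart from that of the Mef2c deletion.

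IRF proteins share a DNA-binding domain that recognises GAAA repeats in the promoters of interferons and of the genes that interferons induce. Irf3, Irf5 and Irf7 are activated by kinases downstream of sensors of foreign nucleic acid and switch on interferon genes. Irf9 is part of the complex that carries the interferon signal to the nucleus. Irf1 activates and Irf2 mostly represses shared target genes, and Irf8 and Irf4 act with Ets partners such as Spi1 in myeloid, dendritic and B cells. Poly(I:C) is an analog of double-stranded RNA and is itself an inducer of type I interferon.

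As labelled, Cy3 marked the mutant and Cy5 the control on each of the 3 arrays, so dye and genotype cannot be told apart. Ratios below are log2 of Mef2c-deficient over control, with this labelled direction. The deposited ratio column of array 2 runs opposite to those of arrays 1 and 3 when set against the scanner's Cy5 over Cy3 ratio (Pearson's r across spots -0.947, 0.935 and -0.939 on arrays 1, 2 and 3). The direction of array 2 is therefore not settled, and values with its sign turned are given for the members and wherever the mean of another named gene changes sign. The ratios of all genes tested, each by its tested probe, correlated between arrays at 0.31 (arrays 1 and 2), 0.13 (arrays 1 and 3) and 0.04 (arrays 2 and 3). The values that involve array 2 change sign if array 2 is turned. In a channel, 73.4% to 80.4% of probes were well above background and 0 spots were saturated. Nothing in the labels ties the replicates to separate mice, and p-values here speak of the spread among these 3 pairs, which may be technical.

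Control library 1 stood apart. Its mean log2 level over 13 immediate early and heat shock genes was 15.04, with 12.02 and 11.17 in the other control libraries, against 10.58, 11.62 and 11.06 in mutant libraries 1, 2 and 3. Its mean over 11 neutrophil genes was 12.3, with 9.91 and 10.2 in the other controls, against 9.91, 10.1 and 9.41 in the mutants. Without array 1 the median mean ratio of the 2 lists was -0.21 and -0.42, against -1.76 and -1.28 with it. Ratios of array 1 are taken against this library, and its part in the results below was not tested beyond the values without array 1. The 10 progenitor markers were well above background in all 6 libraries. The Mef2c probe for NM_025282 had ratios of 0.08, 0.10 and -0.96 on arrays 1, 2 and 3, and the probe for AK044643 had 1.07, 0.22 and 0.28. The labels do not name the floxed part of the gene, so these probes do not check the deletion.

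None of the 8 IRF genes differed between Mef2c-deficient and control progenitors by the limma test with Benjamini-Hochberg adjustment over all genes. At an adjusted p under 0.05 there were 0 calls among 22220 genes (0%), whereas 2251 genes (10.1%) had an unadjusted p under 0.05. Irf2 was the 1 IRF gene of 8 in the second count, on the side lower in mutants, where 5.32% of all genes stood, and 0 of 8 were on the higher side, against 4.81%. That share of 8 is near the background. The mean ratio was below 0 in 6 of 8 IRF genes, against 54.6% of all genes, and with array 2 turned in 4 of 8, against 51.7%. The median over the 8 was -0.24, against -0.04 over all genes, and with array 2 turned the 2 medians were both -0.01.

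As labelled, Irf1 and Irf2 were the IRF genes with ratios below 0 on all 3 arrays, 2 of 8 against 35.5% of all genes with 1 sign on the 3 arrays (20.3% for below 0). With array 2 turned, 0 of 8 had 1 sign on the 3 arrays, against 20.1% of all genes. Promoter sequence of Irf1, Irf2 and Irf8 is shown because, among the windows searched, theirs held matches to elements through which interferon signals and IRF proteins act. The sequences are the 250 bases before the gene's outermost RefSeq start in GRCm38.p6, plus strand, 5′ to 3′. Capitals mark matches to TTCNNNGAA, the element of Stat dimers, and to the IRF element, searched as a pair of GAAA runs with any 2 bases between them.
Irf1, chr11:53769764-53770013: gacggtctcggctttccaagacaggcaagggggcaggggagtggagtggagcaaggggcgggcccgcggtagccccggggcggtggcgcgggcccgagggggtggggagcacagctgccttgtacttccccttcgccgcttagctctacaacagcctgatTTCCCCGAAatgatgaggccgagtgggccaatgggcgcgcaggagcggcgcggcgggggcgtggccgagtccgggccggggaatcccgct
Irf2, chr8:46739495-46739744: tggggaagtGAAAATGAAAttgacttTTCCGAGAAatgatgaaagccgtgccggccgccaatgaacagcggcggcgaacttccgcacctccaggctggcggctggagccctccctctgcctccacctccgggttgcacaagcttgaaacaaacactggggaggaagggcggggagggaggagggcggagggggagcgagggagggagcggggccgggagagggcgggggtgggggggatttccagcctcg
Irf8, chr8:120736108-120736357: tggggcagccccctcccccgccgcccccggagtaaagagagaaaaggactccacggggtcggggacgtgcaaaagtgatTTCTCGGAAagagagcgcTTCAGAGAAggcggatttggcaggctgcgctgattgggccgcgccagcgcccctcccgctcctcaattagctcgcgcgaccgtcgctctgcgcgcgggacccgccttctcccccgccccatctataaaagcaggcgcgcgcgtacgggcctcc

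The Irf1 window held 1 Stat element, TTCCCCGAA, starting 90 bases before the start. The Irf2 window held the IRF element GAAAATGAAA at 241 bases and the Stat element TTCCGAGAA at 224 bases. The Irf8 window held TTCTCGGAA at 171 bases and TTCAGAGAA at 153 bases. Over 32851 promoter windows of the same length, searched on both strands, TTCNNNGAA was found in 7.02% and the IRF element in 2.977%. No 2 matches shared bases in the windows shown. Irf1, Irf8 and Irf9 had 2 windows each, and the second windows of Irf1 and Irf8, not shown, held no match. Neither element was found in the windows of Irf3, Irf4, Irf5, Irf7 and Irf9. For Irf5 and Irf7 the 1 window searched was not at the gene's outermost start, and that start was not searched. The MEF2 element, searched as CTA and TAG with any 4 bases between them and found in 3.202% of all windows, was in none of the 8 genes' windows. A match is a run of letters and says nothing of binding in these cells.

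Irf2, the repressor of the Irf1 pair, had the smallest p-value among the tested probes, 1 per gene. Its log2 level was 11.90, 12.04 and 11.85 in Mef2c-deficient libraries 1, 2 and 3, against 12.66, 12.24 and 12.75 in control libraries 1, 2 and 3. The groups did not overlap, with every mutant library under every control library, and Irf2 was the 1 gene of 8 so separated by its tested probe, against 18.9% of all genes (11.7% with mutants lower). The mean ratio was -0.62 ± 0.37 (SD, n = 3 arrays), or 1.54-fold lower in mutants, with a 95% interval of -1.20 to -0.04. The limma p was 0.0398 before adjustment and 0.479 after it. The ratio was -0.55 without array 1, -0.83 without array 2 and -0.49 without array 3, and the unadjusted p was under 0.05 in the second of these only. With array 2 turned it was -0.48, and the groups then overlapped, as in all 8 genes (8.09% of all genes did not overlap). Its probe lies on chromosome 8.

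Irf1, the activator, was bright on its first probe, with levels of 13.43, 14.00 and 13.06 in mutants against 13.98, 14.13 and 13.98 in controls. The controls lay close together (SD 0.089), less than the mutants (SD 0.47), and mutant library 2 stood above the lowest controls. The mean ratio was -0.53 ± 0.39 (SD, n = 3 arrays; limma adjusted p = 0.501; 95% interval -1.13 to 0.06), and -0.44 with array 2 turned. The dimmer probe of Irf1 had levels of 10.88, 10.39 and 10.93 in mutants against 12.51, 11.59 and 11.00 in controls. Here the groups did not overlap, though mutant library 3 and control library 3 nearly touched. Its ratios were -1.63, -1.20 and -0.07, with a mean of -0.97 ± 0.81 and an adjusted p of 0.543 over all kept probes in limma, and with array 2 turned the mean was -0.17. As labelled, the 2 probes were thus below 0 on all arrays but put the largest difference on different arrays, array 3 for the brighter and array 1 for the dimmer. In the coordinates of the array design, of a build not given in the sources used, the brighter probe lies at chr11:53730701-53730846 and the dimmer at chr11:53733970-53734029.

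**Figure D1:**
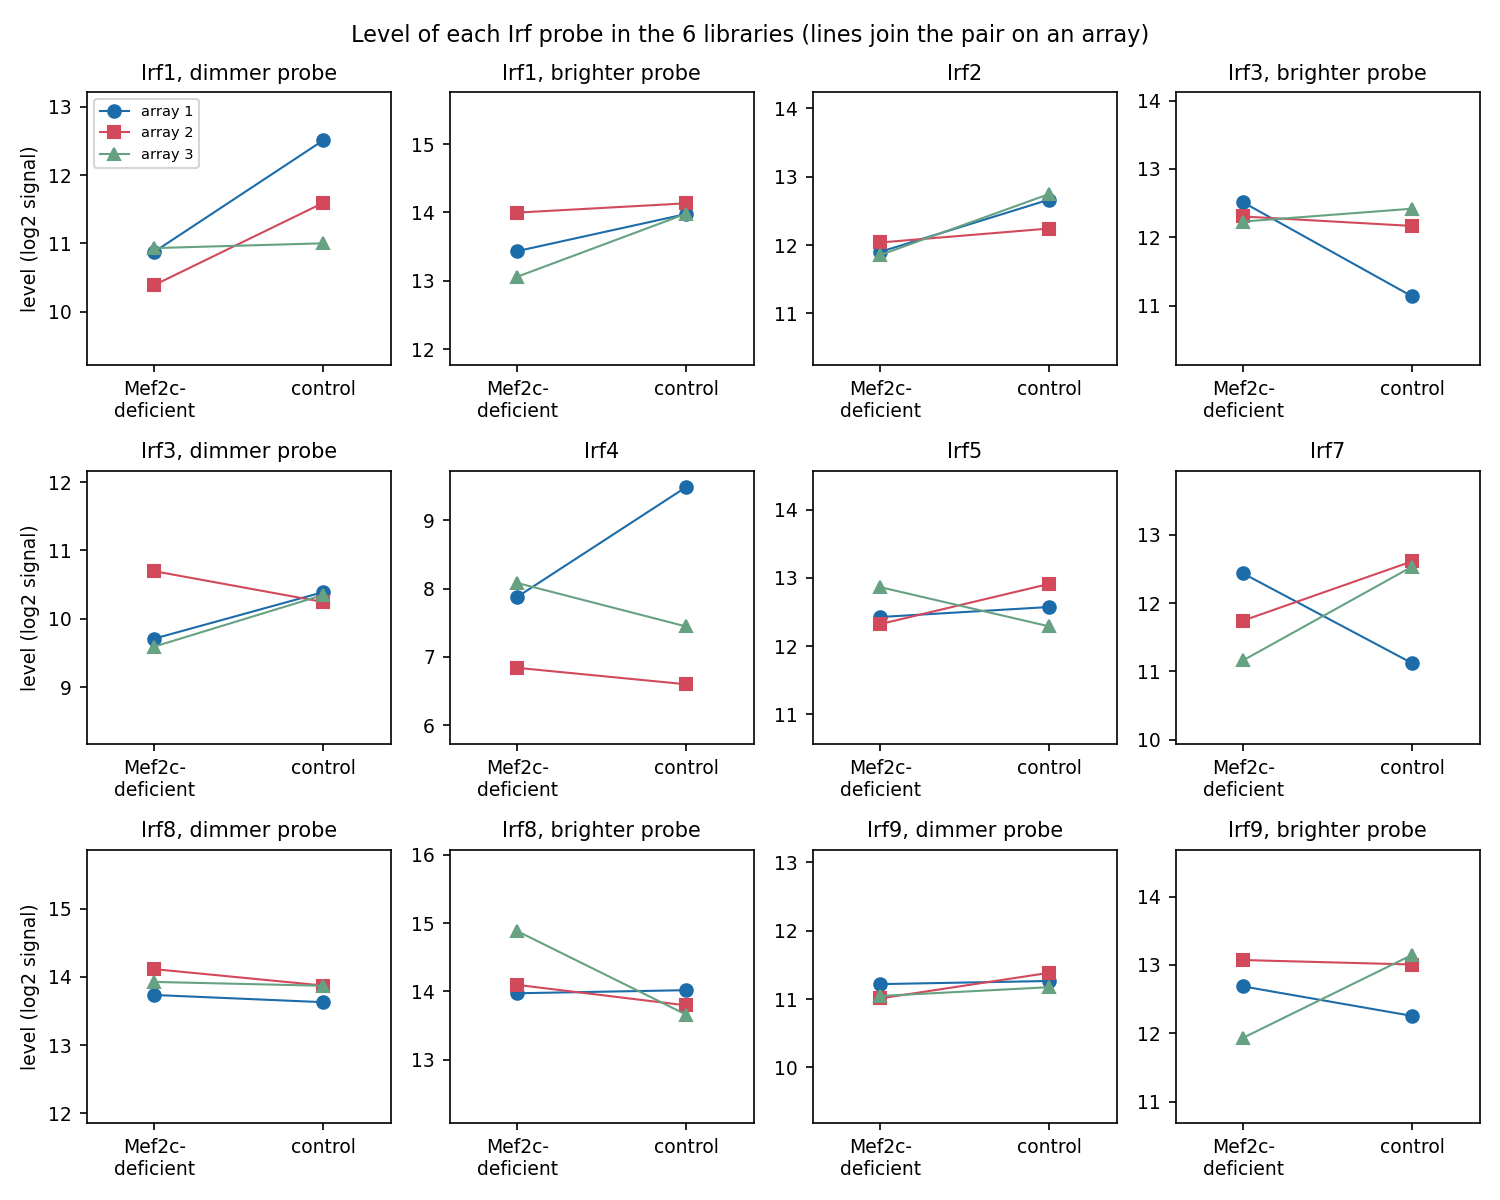
Log2 level (vertical axes) of the 12 IRF probes in Mef2c-deficient libraries (left) and control libraries (right), with lines joining the 2 libraries of an array. Irf2 and the dimmer Irf1 probe are the 2 probes whose groups do not overlap; in Irf7 the line of array 1 runs against those of arrays 2 and 3.

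Irf9, the DNA-binding part of the interferon-activated complex, did not separate the groups. Its brighter probe had levels of 12.69, 13.07 and 11.93 in mutants against 12.25, 13.01 and 13.15 in controls. Mutant library 3 was the lowest of the 6 and control library 3 the highest. The ratios were 0.43, 0.07 and -1.21, with a mean of -0.24 ± 0.86 (SD, n = 3 arrays; limma adjusted p = 0.801), -0.28 with array 2 turned and 0.25 without array 3. The dimmer probe spanned 11.01 to 11.22 in mutants against 11.17 to 11.38 in controls. Its ratios, -0.05, -0.38 and -0.13, had a mean of -0.18 ± 0.17, and with array 2 turned the mean was 0.07.

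Irf7, which amplifies the interferon response and is itself induced by interferon, varied more between arrays than any other member. Its level was 12.43, 11.75 and 11.16 in mutants against 11.12, 12.61 and 12.54 in controls. Mutant library 1 was 1.31 above its control on the log2 scale, while the ratios of arrays 2 and 3 were -0.87 and -1.37. The SD of the 3 ratios, 1.43, was larger than that of 98.1% of all genes, and the mean of -0.31 lay well within it (limma adjusted p = 0.828, 95% interval -1.60 to 0.98). Without array 1 the mean was -1.12 (limma adjusted p = 0.783). Irf7 was then the 1 IRF gene of 8 at an unadjusted p under 0.05, against 5.83% of all genes. Without array 3 the mean was 0.22, and with array 2 turned 0.27, so its sign rests on single arrays.

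Irf3, the constitutive factor that the first wave of sensing activates, gave opposite mean ratios with its 2 probes. The brighter probe had 12.51, 12.30 and 12.23 in mutants against 11.13, 12.17 and 12.42 in controls. The mutants lay close together and control library 1 stood far below the other libraries. The ratios were 1.38, 0.14 and -0.19, with a mean of 0.44 ± 0.83 (SD, n = 3 arrays; limma adjusted p = 0.637), 0.35 with array 2 turned and -0.02 without array 1. The dimmer probe, designed on the transcript AK050570, had 9.71, 10.70 and 9.59 in mutants against 10.39, 10.25 and 10.35 in controls. Its ratios were -0.68, 0.45 and -0.76, with a mean of -0.33 ± 0.68, and -0.63 with array 2 turned. On array 1 the 2 Irf3 probes differed by 2.06 in log2 ratio, the largest of the 12 such values in IRF genes. This picked value was larger than 98.0% of all values, not so picked, for genes with 2 or more kept probes. In the design's coordinates the brighter lies at chr7:41178031-41178090 and the dimmer at chr7:41173735-41173794.

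Irf5, which acts downstream of Toll-like receptors, had levels of 12.43, 12.32 and 12.86 in mutants against 12.57, 12.91 and 12.29 in controls. The groups overlapped fully. The ratios were -0.15, -0.59 and 0.57, the mean was -0.05 ± 0.59 (SD, n = 3 arrays), and the 95% interval of -0.75 to 0.64 leaves room for a difference of either sign (limma adjusted p = 0.953). With array 2 turned the mean was 0.34, and it was 0.21 without array 2.

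Irf8, the factor that guides monocyte and dendritic cell development, had the highest mean ratio of the 8 as labelled, 0.49. With array 2 turned it was 0.29, below Irf3 and Irf5. Its brighter probe had levels of 13.97, 14.09 and 14.88 in mutants against 14.02, 13.79 and 13.66 in controls. Mutant library 3 stood above all others and mutant library 1 lay within the controls. The ratios were -0.05, 0.30 and 1.22, with a mean ± SD of 0.49 ± 0.66 (n = 3 arrays; limma adjusted p = 0.564; 95% interval -0.24 to 1.23) and 0.13 without array 3. The dimmer probe had 13.74, 14.11 and 13.93 in mutants against 13.63, 13.87 and 13.87 in controls. Its ratios of 0.11, 0.24 and 0.06 had a mean of 0.13 ± 0.095, and with array 2 turned the mean was -0.03. The 2 probes lie near each other in the design's coordinates, at chr8:119391398-119391457 for the brighter and chr8:119390963-119391022 for the dimmer.

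Irf4, which acts in B, plasma and dendritic cells, was the dimmest probe of the set and the 1 of 12 not well above background in all 6 libraries. It was well above background on arrays 1 and 3 in both groups, and not on array 2 in either. Its levels were 7.88, 6.84 and 8.08 in mutants against 9.49, 6.60 and 7.44 in controls. Control library 1 was the highest, more than 1 log2 unit above any other library. The ratios were -1.61, 0.24 and 0.64, with a mean of -0.24 ± 1.20 (SD, n = 3 arrays; limma adjusted p = 0.845), -0.40 with array 2 turned and 0.44 without array 1. Of 8 conventional dendritic cell markers, 3 (Cd74, Clec9a and H2-Ab1) were also highest in control library 1, while Itgax was lowest there. The mean level of the 8 was 9.42 to 9.51 in mutants, against 10.2, 9.87 and 9.30 in controls 1, 2 and 3, with 7 of the 8 well above background in all libraries. The part of such cells in the Irf4 ratio was not tested. In sorted samples of this kind, fewer cells of a type and less RNA per cell cannot be told apart.

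**Figure D2:**
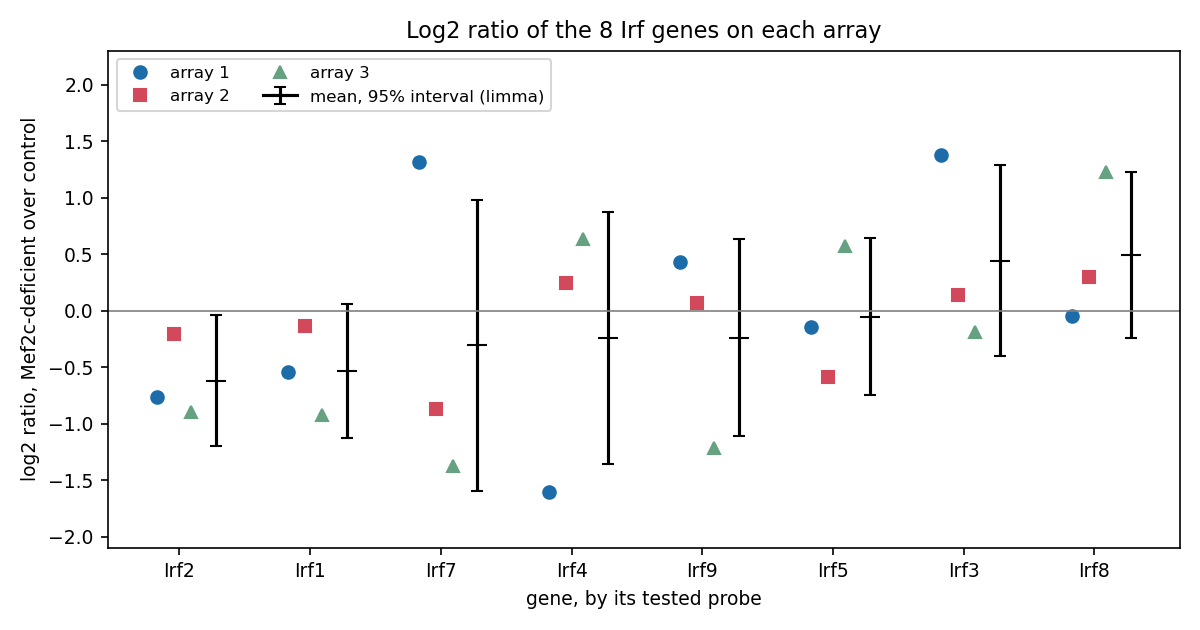
Log2 ratio of Mef2c-deficient over control (vertical axis) for the tested probe of each IRF gene, with 1 point per array and the mean with its 95% interval from limma. As labelled, Irf2 and Irf1 are below 0 on all 3 arrays, and Irf7 and Irf4 spread the most.

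The 4 genes with 2 probes show how far a single-probe ratio can be read. Over their 12 pairs of values the median difference between probes was 0.71 in log2 ratio, against 0.46 over 7250 genes with 2 or more kept probes. The probes had the same sign in 8 of 12 pairs, against 59.4% of values over all such genes. Their means had the same sign in 3 of 4 genes, against 63.6%. Across the 6 libraries the levels of the 2 probes had a Pearson's r of 0.31 for Irf1, 0.22 for Irf8, 0.18 for Irf9 and -0.29 for Irf3. These 6 points share 3 arrays and 2 genotypes and describe these libraries alone.

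**Figure D3:**
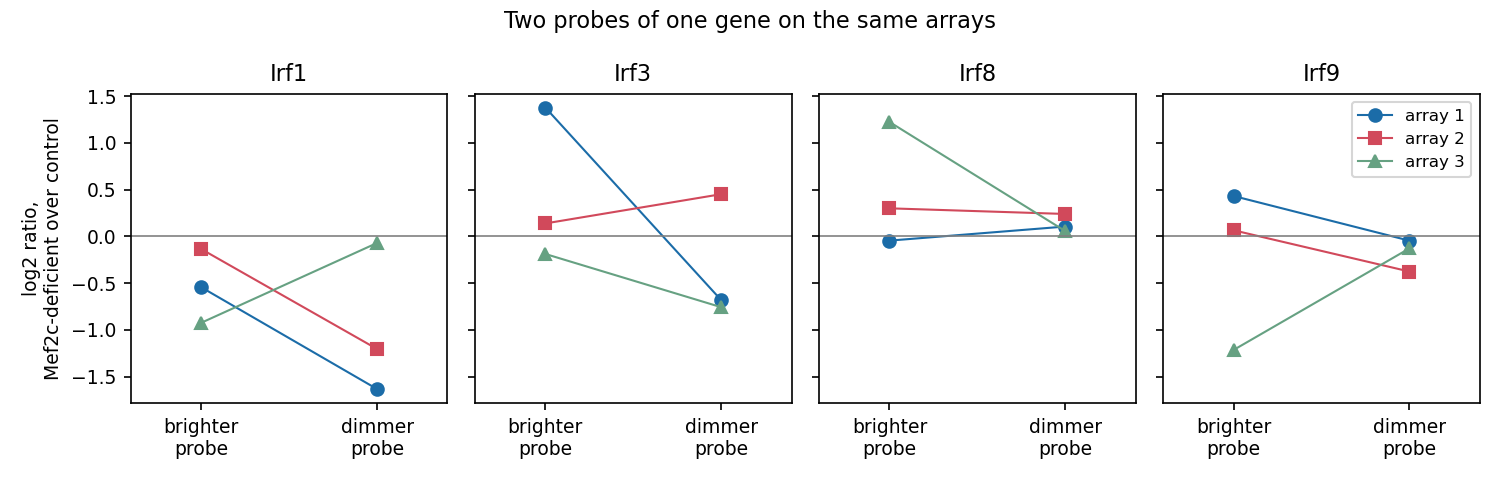
Log2 ratio of Mef2c-deficient over control (vertical axis) by the brighter and the dimmer probe of Irf1, Irf3, Irf8 and Irf9, with lines joining values of 1 array. As labelled, Irf1 is below 0 with both probes on every array, and the Irf3 probes differ by 2.06 on array 1.

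Between members, levels over the 6 libraries went together most closely for the brighter probe of Irf1 and the dimmer probe of Irf3 (r = 0.89) and for Irf7 and the brighter probe of Irf9 (r = 0.80). The brighter probe of Irf8 ran opposite to the brighter probes of Irf1 (r = -0.82) and Irf9 (r = -0.81). With the other probe of each gene, Irf1 and Irf3 gave -0.88 and Irf7 and Irf9 gave 0.46. Irf8 then gave -0.78 with Irf1 and -0.64 with Irf9. With 1 probe of a pair changed, Irf8 gave 0.03 or -0.19 with Irf1 and 0.38 or -0.59 with Irf9. The size, and in part the sign, of these relations thus depends on the probe. Of 26 interferon-stimulated genes, 18 had a positive r with Irf7 (median 0.22), against 46.9% of all genes. With the dimmer Irf9 probe 19 of 26 did (median 0.38), against 54.7% of all genes, and with the brighter probe 15 of 26, against 47.1%. The dimmer Irf1 probe also gave 18, and the brighter Irf1 probe and Irf5 gave 15 each. Irf2 gave 13, the Irf3 probes 12 and 13, and the Irf8 probes 11 and 9. For these Irf1, Irf2, Irf3, Irf5 and Irf8 probes the share of all genes was 45.4% to 55.4%.

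Genes whose level pattern was most like that of a member were sought among 19499 genes, by Pearson's r over the 6 libraries. Each r below is thus among the highest of 19499 values on 6 points. The tested probe of each member was used, and its other probe, where it had one, was not searched. They were Grin2d and Tns2 for Irf1 (r = 0.995 and 0.993), Arl5c, Hmgn5 and Parp4 for Irf2 (0.996, 0.992 and 0.984), and Tnip2 and Pcca for Irf3 (0.993 and 0.992). For Irf5 they were BC064078 and Rnf24 (0.987 and 0.986), and for Irf7 Wdr76, Fermt3 and Fuz (0.995, 0.989 and 0.986). For Irf8 they were Xrcc1, Sun2 and Psap (0.995, 0.990 and 0.985), and for Irf9 LOC668139 and Zfp946 (0.989 and 0.987). The remaining places went to transcripts with clone or array names. No other IRF gene was among them.

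Upstream of the IRF proteins, 18 of 20 listed kinases, adaptors and sensors were tested. Of these, 2 were higher and 0 lower in mutants at an unadjusted p under 0.05, where 4.81% of all genes were higher and 5.32% lower, and 0 passed the adjusted test. The 11.1% so counted is near the 10.1% of all genes. Ikbke, a kinase of Irf3 and Irf7, had levels of 12.13, 12.58 and 12.71 in mutants against 11.48, 11.75 and 11.93 in controls. Ifih1, the cytoplasmic sensor of long double-stranded RNA, had 10.95, 10.86 and 11.12 in mutants against 8.61, 9.78 and 10.67 in controls. Both were separated, with mutants above, and were the 2 genes of the list on that side. With mutants lower, 3 were separated, among them Mavs. Over all genes, 18.9% were separated in either direction and 11.7% with mutants lower. The mean ratios of Ikbke and Ifih1 were 0.75 ± 0.09 and 1.28 ± 0.96 (limma adjusted p = 0.463 for each), and 0.20 and 0.56 with array 2 turned. Mavs, the adaptor that Ifih1 signals through, averaged -0.46 ± 0.40 (adjusted p = 0.531). The median of the list was 0.06, against -0.04 over all genes. The counts were 1 higher and 0 lower without array 2, 3 and 1 without array 3, and 0 on either side with array 2 turned. With the mean of all probes of a gene they were 1 and 0. The share of all genes at that p also moved with the setting, which bears on every list below. It was 5.83% without array 1, 8.12% without array 2 and 12.3% without array 3. With array 2 turned it was 2.90%, and with the mean of all probes 10.4%.

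Among 19 interferon receptor and JAK-STAT genes, 1 was higher and 0 were lower in mutants at an unadjusted p under 0.05 (5.26% in all, against 10.1% of all genes), with a list median of 0.03. It was Ifngr1, a chain of the interferon gamma receptor, at 12.72, 12.07 and 13.21 in mutants against 12.41, 11.55 and 12.30 in controls. The ratio was above 0 on all 3 arrays, with a mean of 0.58 ± 0.30 (limma adjusted p = 0.483), while the levels of the groups overlapped. The other chain, Ifngr2, averaged 0.39 ± 0.40 (-0.18 with array 2 turned) and the feedback inhibitor Socs1 -0.32 ± 0.08. In this list 2 genes were higher without array 1, and 0 without array 2, without array 3 or with array 2 turned.

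Downstream, 26 of 30 listed interferon-stimulated genes were tested, and 0 were higher and 5 lower in mutants at an unadjusted p under 0.05 (19.2% in all, against 10.1% of all genes), none after adjustment. The antiviral GTPase gene Mx2 had 8.30, 8.68 and 8.90 in mutants against 9.26, 9.85 and 9.48 in controls. Every mutant was below every control, as in 3 of the 26 genes, against 11.7% of all genes. Oas2, which makes the messenger that activates RNase L, averaged -0.71 ± 0.29, and Rsad2, the antiviral protein viperin, -0.87 ± 0.61 (0.02 with array 2 turned). The adjusted p of Mx2, Oas2 and Rsad2 was 0.462, 0.463 and 0.468 in limma. The list median was -0.13, and array by array it was 0.06, -0.41 and -0.14, and it was 0.07 with array 2 turned. Without array 1 the counts were 0 higher and 1 lower (5.83% of all genes on either side). Without array 2 they were 1 and 2 (8.12%), without array 3 they were 1 and 5 (12.3%), and with array 2 turned 1 and 0 (2.90%). With the mean of all probes of a gene they were 1 and 3 (10.4%).

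Of 15 tested genes reported as Irf1 targets, 0 were higher and 1 lower in mutants at an unadjusted p under 0.05 (6.67% in all, against 10.1% of all genes). This was Lmo2, a regulator of blood progenitors, at 14.18, 14.89 and 14.30 in mutants against 15.44, 15.19 and 15.19 in controls (mean ratio -0.82 ± 0.48; limma adjusted p = 0.463). The cell cycle inhibitor Cdkn1a had ratios of -2.11, -0.79 and 0.14 and was highest in control library 1. The counts were 0 on either side without array 1 or with array 2 turned, and 1 higher and 3 lower without array 3. With the mean of all probes of a gene they were 0 higher and 2 lower. Of 14 tested genes reported as Irf8 or Irf4 targets, 0 stood on either side. The lysosomal protease Ctsc averaged 0.67 ± 0.78 (-0.21 with array 2 turned), the phosphatase Acp5 0.49 ± 0.82 and the dendritic cell factor Batf3 -0.39 ± 0.22. In this second list 1 gene was higher without array 1, and 1 without array 3.

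Among 18 DNA-binding partners and cofactors of IRF proteins, 0 were higher and 1 lower in mutants at an unadjusted p under 0.05 (5.56% in all, against 10.1% of all genes). Ikzf1, the lymphoid factor Ikaros, had 13.06, 12.75 and 12.69 in mutants against 14.16, 13.90 and 13.88 in controls. The groups did not overlap, as in no other gene of the list, against 18.9% of all genes. The ratios of -1.09, -1.14 and -1.19 were nearly equal on the 3 arrays, with a mean of -1.14 ± 0.05 (limma adjusted p = 0.462), and -0.38 with array 2 turned. The Ets factor Etv6 averaged -0.47 ± 0.39 and the acetyltransferase gene Crebbp -0.50 ± 0.42. The counts in this list stayed at 0 higher and 1 lower when any 1 array was left out, and were 0 on either side with array 2 turned. With the mean of all probes of a gene they were 1 higher and 1 lower. Of 14 genes for the turnover and modification of IRF proteins, 0 stood on either side. The ubiquitin ligase gene Skp2 averaged 0.35 ± 0.19, and 1 gene of this list was higher without array 3.

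**Figure D4:**
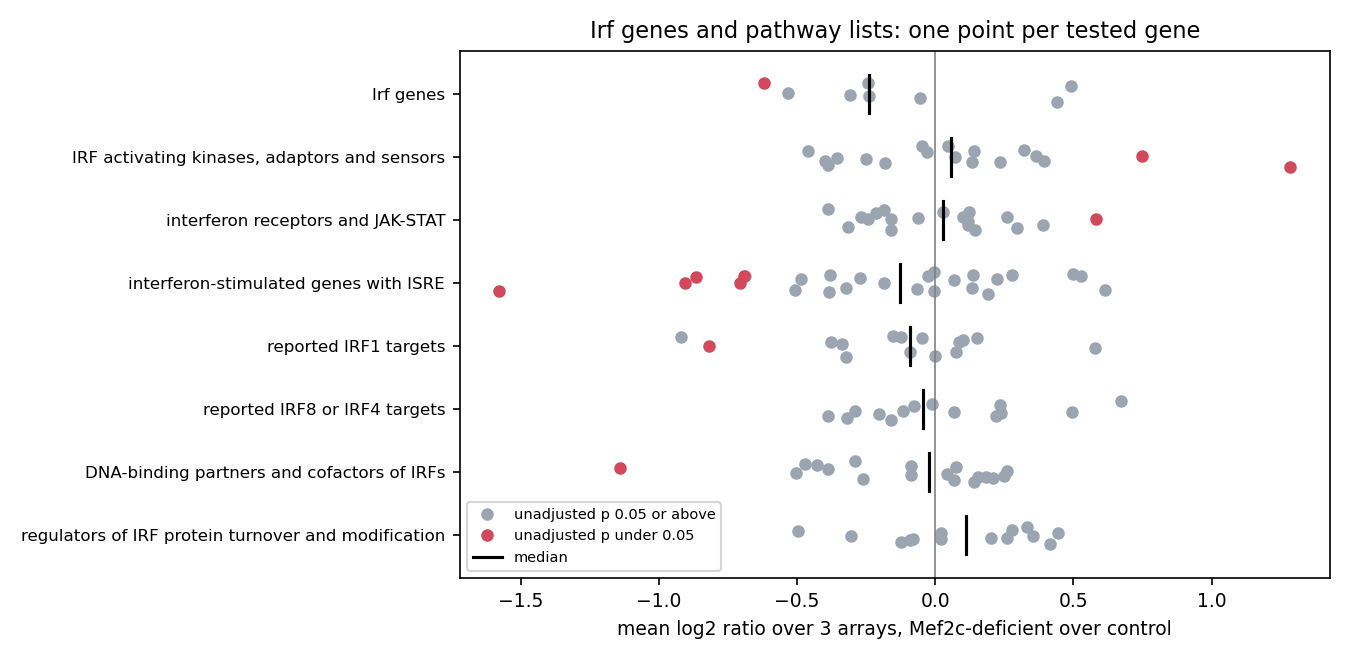
Mean log2 ratio over 3 arrays, Mef2c-deficient over control (horizontal axis), of each tested gene among the 8 IRF genes and 7 pathway lists (rows), with the median of each as a bar. Red points have an unadjusted p under 0.05; no point passed the adjusted test.

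The marker lists are given as counts and mean ratios, with mean levels for some. Counts are read against the 4.81% of all genes that were higher and the 5.32% that were lower. Of 11 monocyte and macrophage genes, 4 were higher and 0 lower in mutants at an unadjusted p under 0.05, with mean levels of 11.3 to 11.6 in mutants against 10.9 to 11.2 in controls. Fcgr1 averaged 1.14 ± 0.21 and Adgre1 1.002 ± 0.20 (0.54 and 0.18 with array 2 turned). All 8 tested plasmacytoid dendritic cell genes had a mean ratio below 0, against 54.6% of all genes. This was not particular to them. All 10 T and NK cell, 12 of 13 immediate early and heat shock, 9 of 11 neutrophil and 7 of 8 B cell genes were also below 0. Of the monocyte and macrophage genes 3 of 11 were. Of the 8 plasmacytoid dendritic cell genes, 0 were higher and 1 lower at that p. The lower one was Dntt, also a V(D)J recombination gene and not particular to these cells, at -2.63 ± 1.32 (-0.54 with array 2 turned). Ccr9 averaged -0.47 ± 0.54. The mean levels of the 8 genes, Dntt included, were 10.8 to 10.9 in mutants against 11.4 to 11.6 in controls. The median ratio of the 8 was -0.35. Of 8 conventional dendritic cell genes 1 was higher and 1 lower at that p. The higher one was Itgax at 0.70 ± 0.49 and the lower one was Cd74 at -1.10 ± 0.93. Clec9a, which did not reach that p, had -0.90 ± 1.73, from ratios of -2.83, -0.39 and 0.52 on arrays 1, 2 and 3. Its probe was dim, and 1 of the mutants and 2 of the controls had it well above background. Of 8 B cell genes 0 stood on either side, with Vpreb1 at -0.52 ± 0.90 and Cd79b at 0.48 ± 0.58. Of 10 T and NK cell genes 0 were higher and 3 lower at that p. Tcf7 led at -1.86 ± 0.26, with Gata3 at -1.39 ± 0.17 (-0.42 and -0.39 with array 2 turned). In the same terms 3 of 11 neutrophil genes were lower, among them S100a9 at -1.94 ± 1.77 but not Ngp, at -1.95 ± 2.45. So were 2 of 7 erythroid genes, Hba-a1 at -1.68 ± 1.03 (0.02 with array 2 turned) and Slc4a1 at -1.32 ± 0.87. Of 13 immediate early and heat shock genes 2 were lower, and the largest mean ratios in size, Atf3 at -2.62 ± 3.50 and Egr1 at -2.61 ± 3.21, were not among them. Of the 10 progenitor markers, 2 were higher and 1 lower. Slamf1 had 1.16 ± 1.05 and Flt3 -1.15 ± 0.12 (-0.36 and -0.32 with array 2 turned). The part of other cell types in the IRF ratios was not tested.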

How the data were processed

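Each of the 3 arrays held cDNA amplified by global PCR from sorted cells, per the labels' protocols, and all lay on 1 slide, per the file headers. Spot intensity values were deposited as scanner files, along with processed signals and log10 ratios (Cy5 to Cy3). Per the file headers, the software was Agilent Feature Extraction, version 9.5.1.1. Another table deposited by the authors gives log2 ratios, whose normalization is not given. The submitters' processing notes name limma without a version. Deposited columns had 201 empty rows each, and their filled rows were paired with spots in order.

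Intensities were corrected by normexp (offset 50) and loess-normalized within arrays, with outlier spots (300, 331 and 252) left out. Levels of single channels were scaled by Aquantile. Probes well above background in 1 channel on at least 2 arrays were kept. The brightest probe stood for its gene. The test of a ratio against 0 used limma (version 3.58.1, R version 4.3.3), with Benjamini-Hochberg adjustment over all genes. Probes took symbols through accession (22951), symbol (6659) or synonym (3109), and 8455 kept the file's name. The fit was tested on simulated data. In each scanner file 1 line held 2 spots and was split when read.

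The members, the 7 pathway lists and the 9 marker lists were chosen with earlier results of these data known. Named genes were all members, in each pathway list the 3 smallest p-values, in each marker list the 2 largest mean ratios in size, and the 3 genes most like each member. Some genes that this rule names are not reported here. Promoters are from RefSeq, GRCm38.p6.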

Additional observations from a re-analysis of the deposited data

How the results depend on the processing

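The limma count of genes at an adjusted p under 0.05 was 0 under every setting run. The count of IRF genes at an unadjusted p under 0.05, 1 as reported, was 0 with the scanner's processed signals, 0 with array 2 turned, and 2 with median centring in place of loess, with the mean of all probes, or with the other probe of Irf1, Irf3, Irf8 and Irf9, a choice added after seeing the data. Leaving out 1 array gave 0 to 1: it was Irf2 without array 2, Irf7 in place of Irf2 without array 1, and none without array 3. Irf1, Irf2 and Irf8 kept their sign under all 12 alternatives, some of which could not change it. Irf2 had 1 probe, so the choice of probe left its ratio as it was. Irf1 and Irf2 were below 0 on every array, so leaving out 1 array could not turn their sign. The dimmer Irf8 probe with array 2 turned, which is not among the 12, had a mean of -0.03. With array 2 turned, Irf5 was 0.34 and Irf7 0.27, and with the other probe Irf3 was -0.33. Leaving out 1 array gave ranges of -0.025 to 0.76 for Irf3, -0.68 to 0.44 for Irf4, -0.37 to 0.21 for Irf5, -1.12 to 0.22 for Irf7 and -0.57 to 0.25 for Irf9. The causes were not tested. Over all genes, 2251 had an unadjusted p under 0.05 (1069 higher, 1182 lower in mutants), 645 with array 2 turned, 1296 without array 1, and 552 higher and 2320 lower with median centring, which put the median of all genes at -0.18, against -0.04. Irf4 had no value when probes had to be well above background in all 6 channels. The reported test is already the paired one, with each ratio taken between the mutant and the control on 1 array. No separate paired alternative was therefore run. A slide block could not be fitted with 1 slide.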
